A study of Mus musculus with 12 samples.

Results

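CD47 is a membrane protein of the immunoglobulin superfamily, and 10 genes around it were followed here. They were Cd47 itself, Sirpa, which encodes its counter-receptor SIRP alpha, the thrombospondin genes Thbs1, Thbs2 and Thbs3, the thrombospondin receptor gene Cd36, and the integrin subunit genes Itgav, Itgb3, Itga6 and Itgb1. The genes were taken from a written list, and all 10 of 10 were among the 19938 genes measured on the arrays. Each gene is represented by 1 probe set that maps to that symbol alone. Cd47 was the only one of the 10 with a second such probe set, and the one with the higher mean over 12 arrays was used.

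The study compared 4 groups of mouse cells with 3 arrays each, total RNA of each sample being hybridised to its own array. ESC was the established embryonic stem cell line V6.5, grown in DMEM with 15% fetal bovine serum and leukemia inhibitory factor (LIF) at 1000 IU/ml. The null_EB group held embryoid bodies, rounded cell aggregates, from CD47 null lung endothelial cells of strain C57Bl/6. According to the labels these cells had been passaged for 6 months, were placed in basal endothelial medium without serum, and gave bodies after 24 to 36 h. The null_EC group held CD47 null C57Bl/6 lung endothelial cells in EGM2, an endothelial growth medium, and WT_EC held wild-type C57Bl/6 lung endothelial cells in the same medium. Genotype, medium, growth form and cell line thus changed together between several groups, and no passage time was given for null_EC or WT_EC. The labels give no Cd47 genotype for V6.5, and they do not say whether the 3 samples of a group came from separate animals or cultures, so the p-values measure a spread between samples that may be technical.

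CD47 passes signals inward when thrombospondin-1 binds it, and in endothelial cells this is known to restrain nitric oxide and VEGF receptor signalling. When it binds SIRP alpha on a macrophage it holds back engulfment of the cell that carries it. Thrombospondins are large matrix proteins that also bind CD36, which scavenges lipids and mediates the anti-angiogenic action of thrombospondin-1, and several integrins. Integrins are pairs of an alpha and a beta chain: alpha v pairs with beta 3 to bind vitronectin and thrombospondin, and alpha 6 pairs with beta 1 to bind laminin.

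All values are log2 signals, so a difference of 1 is a 2-fold change, and signals of different probe sets are not compared with each other. A gene was called when its adjusted p was below 0.05 in limma with Benjamini-Hochberg adjustment over all 19938 genes, and errors of differences are standard errors (SE) of that fit. The WT_EC arrays stood apart from the others in their spread. Pairs of WT_EC arrays correlated at 0.949 to 0.958 across genes, against 0.996 or more within each other group, and the typical gene had a larger SD in WT_EC (median 0.213) than in the other groups (0.0652 to 0.0847). On array WT_EC 3 the 12 macrophage and leukocyte markers summed to 19480 on the linear scale, against 3080 on WT_EC 1, 2497 on WT_EC 2 and 2000 to 3425 on the other 9 arrays. Their median log2 signal, however, was raised on WT_EC 1 too. It was 10.3 on WT_EC 3, 7.77 on WT_EC 1, 6.74 on WT_EC 2 and 6.74 to 6.98 on the other 9 arrays. Of the 14 endothelial markers, 8 lay below 8.01, the median of all gene values, on every ESC array, 13 did so in null_EB, 12 in null_EC and 7 in WT_EC. In null_EC the only markers above it were the VEGF receptor gene Kdr and Egfl7, while the VE-cadherin gene Cdh5 (7.09 to 7.27) and Pecam1 (6.57 to 6.61) were below it. The sum of the 14 was 2175 on WT_EC 2, against 4060 on WT_EC 1 and 4600 on WT_EC 3, 3568 to 3901 in null_EC, 2007 to 2165 in null_EB and 3066 to 3178 in ESC. In null_EC the marker that weighed most in this sum was Kdr (10.52 to 10.83). The median log2 signal of the 14 was 7.59, 6.91 and 7.97 on WT_EC 1, 2 and 3. It was 7.16 to 7.27 in null_EC, 7.02 to 7.10 in null_EB and 7.17 to 7.31 in ESC. Only 1 of the 14 was called between null_EB and null_EC, Kdr, which was lower in null_EB. The 6 mesothelial markers, such as Msln and Upk3b, summed to 1322 to 1395 in ESC, 11975 to 13563 in null_EB, 22225 to 22456 in null_EC and 8187 to 18256 in WT_EC, and 4 of the 6 were called higher in null_EC than in WT_EC. The group labels are therefore used as names and not as measured cell types, and the part of these markers' cells in the results was not tested. Of the 8 embryonic stem cell markers 0 were below 8.01 on all ESC arrays, and all 8 were in each of the other groups.

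The region just upstream of an annotated start was available for 6 of the 10 genes from RefSeq (GRCm38.p6). For Thbs2, Thbs3 and Itgb1 this start is the outer end of the gene's annotated span, and for Cd47, Cd36 and Itgav it lies inside the span. The 250 bases before the start are shown for Cd47, whose start lies in a CG-rich stretch, and for Thbs2 and Cd36, the members whose group means spread furthest on the arrays. RefSeq gives nearly coinciding starts for Cd47, of which the first is shown. The windows run 5′ to 3′ on the gene's own strand, and capitals mark each CG dinucleotide.
Cd47, chr16:49855404-49855653, plus strand: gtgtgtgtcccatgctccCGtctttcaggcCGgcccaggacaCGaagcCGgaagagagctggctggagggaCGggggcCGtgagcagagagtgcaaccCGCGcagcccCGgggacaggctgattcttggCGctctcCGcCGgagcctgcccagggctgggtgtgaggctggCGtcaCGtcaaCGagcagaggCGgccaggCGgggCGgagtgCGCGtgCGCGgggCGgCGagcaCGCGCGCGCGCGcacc
Thbs2, chr17:14694263-14694512, minus strand: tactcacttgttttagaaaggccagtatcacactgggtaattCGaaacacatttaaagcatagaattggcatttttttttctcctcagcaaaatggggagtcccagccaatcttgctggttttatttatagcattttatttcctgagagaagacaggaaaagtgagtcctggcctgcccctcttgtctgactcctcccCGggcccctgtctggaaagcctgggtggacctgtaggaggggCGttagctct
Cd36, chr5:17835897-17836146, minus strand: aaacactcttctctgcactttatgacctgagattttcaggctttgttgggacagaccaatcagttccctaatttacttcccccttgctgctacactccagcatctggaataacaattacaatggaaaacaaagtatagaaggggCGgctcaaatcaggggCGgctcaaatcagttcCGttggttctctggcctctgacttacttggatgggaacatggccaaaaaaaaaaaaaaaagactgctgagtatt
The Cd47 window held 30 CG dinucleotides, a count reached by 5.9% of the 32851 promoter windows of this length, whose median was 6. Those of Thbs2 and Cd36 held 3 each, a count at or below which 37.8% of windows lay. Among the other members the count was 21 for Itgb1, 18 for Itgav and 6 for Thbs3. The group means of Thbs2 and Cd36, shown for their wide ranges, ranged over 2.79 and 2.49 on the log2 scale. Those of Cd47, Itgav, Itgb1 and Thbs3 ranged over 1.18, 1.10, 0.74 and 0.56. For Itga6, Sirpa, Itgb3 and Thbs1, which had no window, the ranges were 2.25, 1.44, 1.4 and 1.14. A relation of CG count and range was not tested. The median range over all genes was 0.47. The E-box CACGTG, the site of Myc and Max, was searched because the title of the series names c-Myc. It was in none of the windows of the 6 genes on either strand, and in 6.0% of all windows. The GC box GGGCGG, on either strand, was in 4 of the 6 (32.7% of all). TATAAA, likewise searched on either strand, was in 1, that of Thbs2 (12.4% of all). There it lay on the opposite strand and reads tttata in the window shown, so the gene's own strand held no TATAAA.

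Cd47 had its highest signal in WT_EC and a lower, nearly even signal in the other 3 groups. On the probe set used, in the gene at chromosome 16, 49851328 to 49912503, it stood at 11.23, 10.96 and 11.33 in ESC, 10.99, 10.89 and 10.93 in null_EB, 10.97, 11.11 and 11.02 in null_EC, and 12.59, 11.29 and 12.48 in WT_EC. Both null groups lay below every WT_EC array, but WT_EC 2 was close to them and below ESC 3. The second probe set gave 9.51, 9.56 and 9.45 in ESC, 9.76, 9.75 and 9.83 in null_EB, 9.88, 9.88 and 9.82 in null_EC, and 11.62, 10.42 and 11.06 in WT_EC, with WT_EC 2 again the lowest of its group. Relative to WT_EC, that probe set fell 2.25-fold in null_EC (log2 -1.17, SE 0.220, adjusted p = 0.00556 in limma) and 2.38-fold in null_EB (adjusted p = 0.00307). The probe set used gave 2.12-fold (adjusted p = 0.0228) and 2.27-fold (adjusted p = 0.0120).

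In the fit as reported no difference of Cd47 between ESC and a null group was called, and its sign differed between the probe sets. ESC minus null_EC was 0.14 on the probe set used (95% interval -0.46 to 0.74, adjusted p = 0.691 in limma) and -0.36 on the second (adjusted p = 0.210), and for ESC minus null_EB the values were 0.24 (-0.36 to 0.84, adjusted p = 0.499) and -0.28 (adjusted p = 0.333). In ESC against WT_EC Cd47 was 1.93-fold lower (adjusted p = 0.0141) on the first and 2.88-fold lower (adjusted p = 0.000173) on the second. From low to high the order of the group means was null_EB, null_EC, ESC and WT_EC on the first, and only the step from ESC to WT_EC passed the test. Neither the exons under the 2 probe sets nor the part that the null allele removes are given in the sources used here, so these values do not check the genotype labels. The second probe set by itself was fitted on all 12 arrays only, so the settings that follow are for the probe set used. In null_EB against WT_EC the call was lost in the fit of those 6 arrays alone (adjusted p = 0.120). In ESC against WT_EC it was lost likewise (adjusted p = 0.0888) and without ESC 2 (adjusted p = 0.0557). ESC was called higher than null_EB without the 3 WT_EC arrays (adjusted p = 0.0262), in the 6 arrays alone (adjusted p = 0.0437) and with array weights (0.32, adjusted p = 0.00181). On the second probe set, by contrast, all ESC arrays (9.45 to 9.56) lay below those of null_EB (9.75 to 9.83). The call in null_EC against WT_EC was lost in the fit of those 6 arrays alone (adjusted p = 0.181), without any 1 null_EC array (adjusted p from 0.0607 to 0.0858), without WT_EC 1 (log2 -0.85, adjusted p = 0.0504) and without WT_EC 3 (-0.91, adjusted p = 0.0584), and it grew to -1.50 (adjusted p = 6.64e-06) without WT_EC 2.

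**Figure D1:**
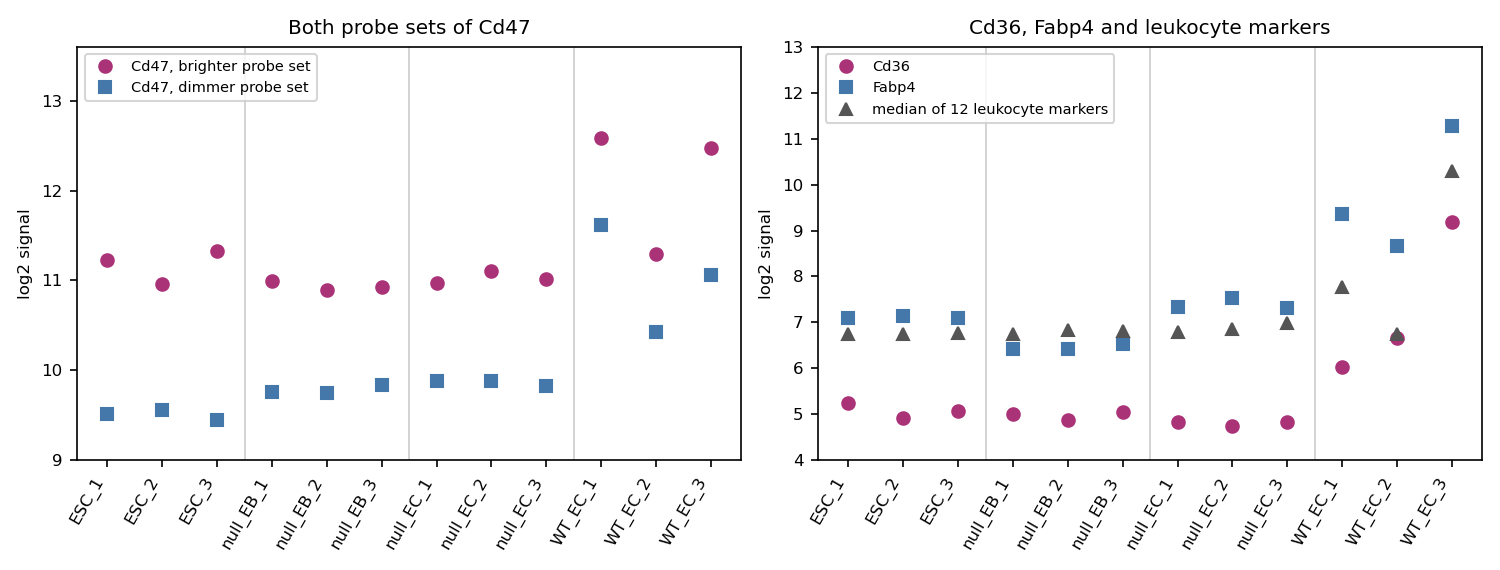
Log2 signal (y axis) on each of the 12 arrays (x axis), with 1 point per array. On the left both probe sets of Cd47 stand highest in WT_EC, with WT_EC 2 the lowest of its group; on the right Cd36, Fabp4 and the median of 12 leukocyte markers all peak on WT_EC 3, and the levels of different genes are not to be compared.

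Sirpa, the ligand and counter-receptor of CD47 on myeloid cells, shared the order of Cd47 and had a narrower spread. Its signals were 9.23, 9.24 and 9.13 in ESC, 8.89, 8.97 and 9.03 in null_EB, 9.25, 8.80 and 9.15 in null_EC, and 10.30, 10.28 and 10.63 in WT_EC. Every WT_EC array lay above every array of the other groups. Sirpa was 2.30-fold lower in ESC than in WT_EC (log2 -1.20, SE 0.124, adjusted p = 1.35e-05 in limma), 2.72-fold lower in null_EB (-1.44, adjusted p = 5.03e-05) and 2.53-fold lower in null_EC (-1.34, adjusted p = 7.67e-05). Differences among ESC, null_EB and null_EC were 0.24 or less and were not called in the fit as reported. ESC was called higher than null_EB without the WT_EC arrays (adjusted p = 0.0448), in the 6 arrays alone (adjusted p = 0.0103) and with array weights (adjusted p = 0.00962). Leaving out WT_EC 3, where macrophage markers were highest, the differences were -1.09 in ESC, -1.33 in null_EB and -1.23 in null_EC, all still called (adjusted p = 3.05e-05, 9.12e-05 and 0.000122). WT_EC 1, where the median of those markers was also raised (7.77), stayed in these fits. On WT_EC 2 Sirpa was at 10.28, and those markers summed to 2497, with 1 of them, Cd14, highest there (10.2, against 8.48 and 8.73 on WT_EC 1 and WT_EC 3 and 7.63 to 8.17 in the null groups). The part of macrophage RNA in the Sirpa difference was not tested. Of 5 other SIRP family genes that were looked for, 0 had a probe set that maps to 1 gene.

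The thrombospondins did not move together. Thbs1, which encodes the main CD47 ligand among them, was low in both null groups and high in ESC and WT_EC. It had signals of 13.04, 13.03 and 12.95 in ESC, 12.46, 12.25 and 12.33 in null_EB, 12.12, 12.26 and 12.07 in null_EC, and 13.66, 12.77 and 13.43 in WT_EC. All 6 null arrays lay below all 6 ESC and WT_EC arrays, whereas ESC and WT_EC overlapped. Thbs1 fell 2.20-fold in null_EC (log2 -1.14, SE 0.180, adjusted p = 0.00203 in limma) and 1.92-fold in null_EB (-0.94, adjusted p = 0.00485) relative to WT_EC. It was 1.58-fold higher in ESC than in null_EB (adjusted p = 0.0115) and 1.81-fold higher in ESC than in null_EC (adjusted p = 0.00223). ESC minus WT_EC was -0.28 (95% interval -0.68 to 0.12, adjusted p = 0.217), but it was called without WT_EC 2 (-0.54, adjusted p = 0.000736) and with arrays aligned on housekeeping genes (-0.51, adjusted p = 0.0294). In fits of only the 6 arrays compared, the calls against WT_EC were lost for null_EC (adjusted p = 0.0647) and null_EB (adjusted p = 0.0818).

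Thbs2, an anti-angiogenic thrombospondin made chiefly by fibroblasts and related cells, was lowest in the embryoid bodies. Signals were 10.78, 10.65 and 10.69 in ESC, 8.11, 7.84 and 7.80 in null_EB, 9.46, 10.35 and 9.61 in null_EC, and 10.59, 8.95 and 11 in WT_EC. The null_EB arrays lay below all other arrays. Thbs2 was 6.94-fold higher in ESC than in null_EB (log2 2.79, SE 0.426, adjusted p = 0.000258 in limma) and fell 4.82-fold in null_EB relative to WT_EC (-2.27, adjusted p = 0.00438). In null_EB against null_EC it fell 3.71-fold (-1.89, adjusted p = 0.0287), a call that ended when any 1 of the 6 arrays was left out (adjusted p from 0.0633 to 0.131, differences from -2.07 to -1.62). The fall relative to WT_EC was lost in the 6 arrays alone (adjusted p = 0.0664). ESC minus null_EC was 0.90 (adjusted p = 0.105), called once the WT_EC arrays were left out (adjusted p = 0.000442). The difference of null_EC and WT_EC was -0.38 (adjusted p = 0.652), and it was called without WT_EC 2, the lowest array of that group (-0.99, adjusted p = 0.00934). The 7 fibroblast markers, such as Col1a1 and Dcn, summed to 8067 to 8538 in ESC, 17591 to 19131 in null_EB, 23639 to 26650 in null_EC and 21676 to 35986 in WT_EC. Their part in the Thbs2 differences was not tested, and in bulk samples fewer cells of a type and less RNA per cell cannot be told apart.

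Thbs3, a pentameric thrombospondin, was below the table median of 8.01 on 12 of 12 arrays. It was at 7.77, 7.98 and 7.81 in ESC, 7.50, 7.61 and 7.53 in null_EB, 7.22, 7.36 and 7.30 in null_EC, and 7.36, 7.73 and 7.61 in WT_EC. The largest difference was that of ESC and null_EC, where ESC was 1.47-fold higher (adjusted p = 0.000709 in limma), and this was not called with arrays aligned on housekeeping genes (adjusted p = 0.0654). ESC was also called higher than null_EB (1.24-fold, adjusted p = 0.0274) and WT_EC (1.22-fold, adjusted p = 0.0335), and both calls were lost under either shift of the arrays (adjusted p from 0.0616 to 0.807) and without ESC 2 (adjusted p = 0.105 and 0.124). The first was also lost without null_EB 1 or null_EB 3 (adjusted p = 0.0793 and 0.0752), and the second without ESC 3 or WT_EC 1 (adjusted p = 0.0564 and 0.0847). In null_EC against WT_EC the difference of -0.27 (adjusted p = 0.107) was called without WT_EC 1 (-0.37, adjusted p = 0.0105). Of the other pentameric genes, Thbs4 was called higher in ESC than in null_EB, null_EC and WT_EC (1.41-fold, 1.49-fold and 1.32-fold, adjusted p = 0.0110, 0.00446 and 0.0333) at signals below 7.5, and the call against WT_EC was lost without WT_EC 2 or WT_EC 3. Comp, the cartilage thrombospondin, was not called in any of the 6 comparisons (adjusted p from 0.128 to 0.937). With arrays aligned on housekeeping genes Thbs4 was called higher in ESC than in null_EC alone, and Comp was then called lower in ESC than in WT_EC.

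Cd36 was close to the bottom of the scale in every group but WT_EC. It stood at 5.23, 4.92 and 5.07 in ESC, 5.01, 4.87 and 5.05 in null_EB, 4.83, 4.73 and 4.83 in null_EC, and 6.02, 6.65 and 9.18 in WT_EC. All WT_EC arrays were above all others, and WT_EC 3 was far above WT_EC 1 and WT_EC 2. The log2 difference was -2.21 in ESC (SE 0.597, adjusted p = 0.0105 in limma), -2.31 in null_EB (adjusted p = 0.0220) and -2.49 in null_EC (adjusted p = 0.0196) relative to WT_EC. As no detection calls were used and the signals outside WT_EC were this low, these are differences of signal and not measures of the fold of the transcript, which may be larger. Without WT_EC 3 the difference was -1.26, -1.36 and -1.54, and it was still called (adjusted p = 0.000106, 0.000498 and 0.000192). WT_EC 1, where the median of the macrophage and leukocyte markers was also raised (7.77), stayed in these fits. The calls in null_EB and null_EC were lost without any 1 array of that null group (adjusted p from 0.0631 to 0.0753), and all 3 were lost in fits of the 6 arrays alone (adjusted p from 0.0754 to 0.177). Macrophage markers moved with Cd36 on WT_EC 3: Adgre1, the gene of F4/80, was at 10.07 there against 6.90 on WT_EC 1 and 5.53 on WT_EC 2, and Lyz2 at 12.31 against 9.05 and 5.44. Fabp4, a fatty acid binding protein of adipocytes, macrophages and capillary endothelium that is listed here with the adipocyte markers, was also highest there (11.28, against 9.37 and 8.67), and the 5 adipocyte markers summed to 776 to 810 in ESC, 1092 to 1190 in null_EB, 1187 to 1265 in null_EC and 1434 to 3321 in WT_EC. Adipoq, which defines adipocytes, was at 5.33 to 5.55 in the other groups and at 5.28 to 5.58 in WT_EC. On WT_EC 2, where Cd36 was at 6.65, Cd14 was at 10.2 and Cd53 at 8.02, against 7.83 to 8.17 and 7.19 to 7.97 in null_EC. Cd53 was higher still in null_EB (9.91 to 10.14), where Cd36 was low. The other markers of that list were not raised on WT_EC 2. Adgre1, Lyz2, Itgam, Csf1r and Fcer1g lay within the null_EC range. Cd68 (8.29, against 9.68 to 10.05), Ptprc, Tyrobp, Laptm5 and Cd52 lay below it. The part of macrophage RNA in the Cd36 differences was not tested.

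**Figure D2:**
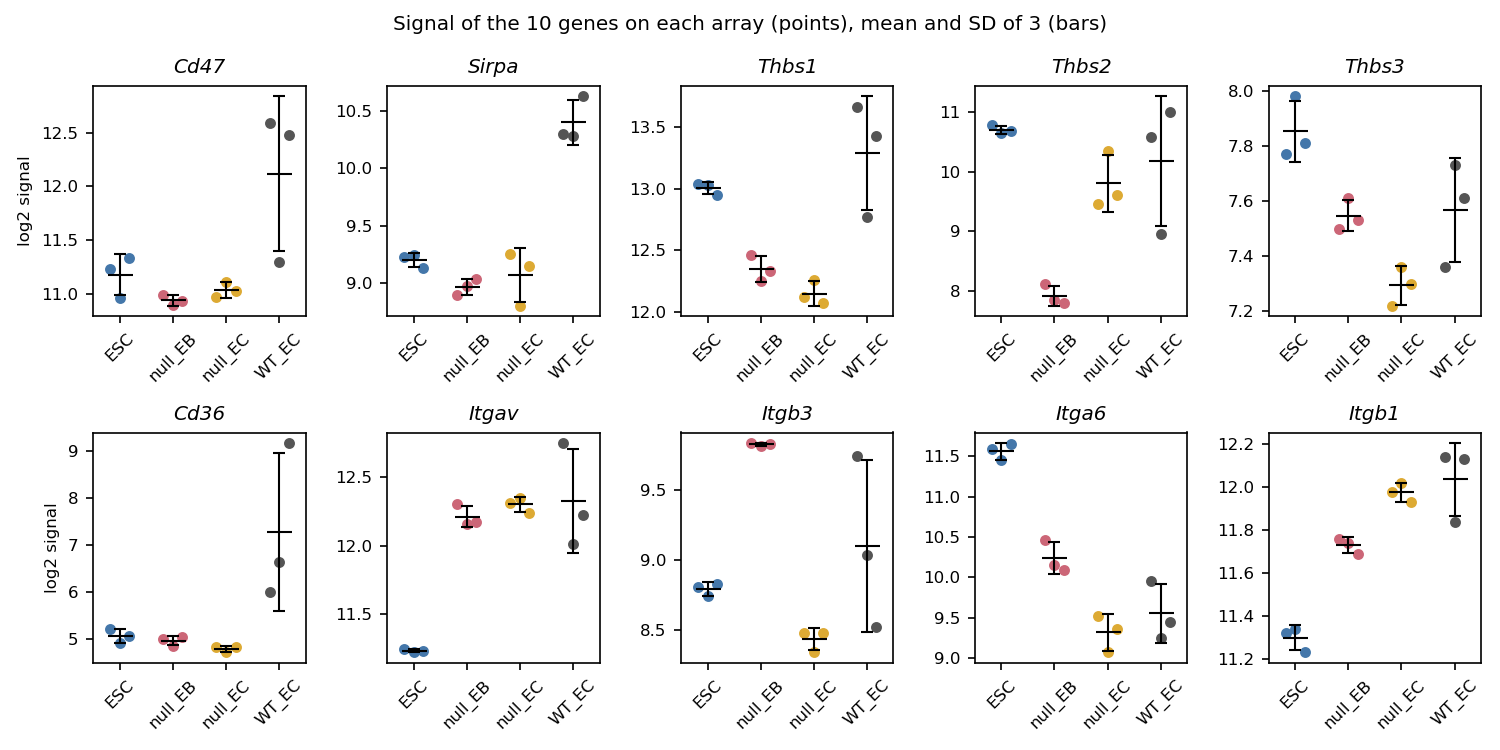
Log2 signal (y axis, a separate scale per gene) of the 10 genes on each array in ESC, null_EB, null_EC and WT_EC, with bars for the mean and SD of 3 arrays. Sirpa and Cd36 stand highest in WT_EC, Thbs1 is low in both null groups, Thbs2 is lowest and Itgb3 highest in null_EB, and Itga6 is highest and Itgav and Itgb1 lowest in ESC.

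Among the integrin subunits, Itgav and Itgb1 were lowest in ESC, Itga6 was highest there, and Itgb3 was highest in null_EB. Itgav, the alpha chain of the vitronectin receptors, was at 11.24, 11.22 and 11.23 in ESC, 12.30, 12.16 and 12.17 in null_EB, 12.31, 12.35 and 12.24 in null_EC, and 12.75, 12.01 and 12.22 in WT_EC. The ESC arrays were the lowest and differed little among themselves, and the other groups overlapped. Itgav was 1.97-fold lower in ESC than in null_EB (log2 -0.98, SE 0.150, adjusted p = 0.000263 in limma), 2.10-fold lower than in null_EC (adjusted p = 0.000125) and 2.14-fold lower than in WT_EC (adjusted p = 0.000112). Among null_EB, null_EC and WT_EC no difference was called, with 95% intervals of -0.42 to 0.24 for null_EB minus null_EC, -0.45 to 0.21 for null_EB minus WT_EC and -0.36 to 0.30 for null_EC minus WT_EC.

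Itgb3, the beta chain that joins Itgav's product in the vitronectin and thrombospondin receptor, was highest in the embryoid bodies. It read 8.81, 8.74 and 8.83 in ESC, 9.84, 9.82 and 9.83 in null_EB, 8.48, 8.34 and 8.48 in null_EC, and 9.75, 9.04 and 8.52 in WT_EC. The null_EB arrays were above all others, and WT_EC spread from near null_EB to near null_EC. Itgb3 rose 2.64-fold in null_EB relative to null_EC (log2 1.40, SE 0.227, adjusted p = 0.00541 in limma), a call that held without any 1 of the 6 arrays (differences from 1.35 to 1.42, adjusted p from 0.0233 to 0.0331). In ESC it was 2.06-fold lower than in null_EB (adjusted p = 0.00301). The 1.66-fold rise over WT_EC (adjusted p = 0.0472) did not hold when WT_EC 3 or WT_EC 2 was left out (adjusted p = 0.0930 and 0.0636), nor with any null_EB array left out. In null_EC against WT_EC the difference was -0.67 (adjusted p = 0.0809), and it was called without WT_EC 3 (-0.96, adjusted p = 0.00285) and with arrays aligned on housekeeping genes (-0.84, adjusted p = 0.00382). ESC minus null_EC was 0.36 (adjusted p = 0.217), called once the WT_EC arrays were left out (adjusted p = 0.000162), and ESC minus WT_EC was -0.31 (adjusted p = 0.277), called without WT_EC 3 (-0.60, adjusted p = 0.0111). For the alpha partner Itgav the difference of null_EB and null_EC was -0.09 (adjusted p = 0.883).

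Itga6, the laminin-binding alpha chain also known as a marker of many stem cells, was highest in ESC and second in the embryoid bodies. The arrays gave 11.59, 11.45 and 11.65 in ESC, 10.46, 10.15 and 10.09 in null_EB, 9.52, 9.07 and 9.36 in null_EC, and 9.95, 9.25 and 9.45 in WT_EC. ESC lay above null_EB, and null_EB lay above null_EC and WT_EC, which overlapped. Itga6 was 2.51-fold higher in ESC than in null_EB (log2 1.33, SE 0.179, adjusted p = 0.000102 in limma), 4.75-fold higher than in null_EC (adjusted p = 1.5e-06) and 4.03-fold higher than in WT_EC (adjusted p = 4.19e-06). In null_EB it rose 1.89-fold over null_EC (0.92, adjusted p = 0.0144) and 1.61-fold over WT_EC (0.68, adjusted p = 0.0232). The rise over null_EC was lost without null_EB 1, null_EB 2, null_EC 2 or null_EC 3 (adjusted p from 0.0531 to 0.0730), and that over WT_EC without WT_EC 3, null_EB 1 or null_EB 2 (adjusted p from 0.0572 to 0.0908) and with 1 variance per group (adjusted p = 0.177).

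Itgb1, the beta chain shared by most matrix-binding integrins, differed least of the integrin genes followed. It was at 11.32, 11.34 and 11.23 in ESC, 11.76, 11.74 and 11.69 in null_EB, 11.98, 12.02 and 11.93 in null_EC, and 12.14, 11.84 and 12.13 in WT_EC. ESC lay below null_EB and null_EB below null_EC on every array. In ESC it was 1.35-fold lower than in null_EB (log2 -0.43, SE 0.0845, adjusted p = 0.00143 in limma), 1.60-fold lower than in null_EC (adjusted p = 5.23e-05) and 1.67-fold lower than in WT_EC (adjusted p = 2.99e-05). The 1.23-fold fall in null_EB relative to WT_EC (adjusted p = 0.0302) was lost under 5 other settings, among them both shifts of the arrays (adjusted p = 0.0529 and 0.211), and without WT_EC 1, WT_EC 3 or any null_EB array (adjusted p from 0.0543 to 0.102). The difference of null_EB and null_EC was -0.24 (adjusted p = 0.143), and it was called when the 3 WT_EC arrays were left out of the fit (adjusted p = 0.00782). Itga6 and Itgb1, whose products pair, thus ran in opposite directions between ESC and each other group.

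**Figure D3:**
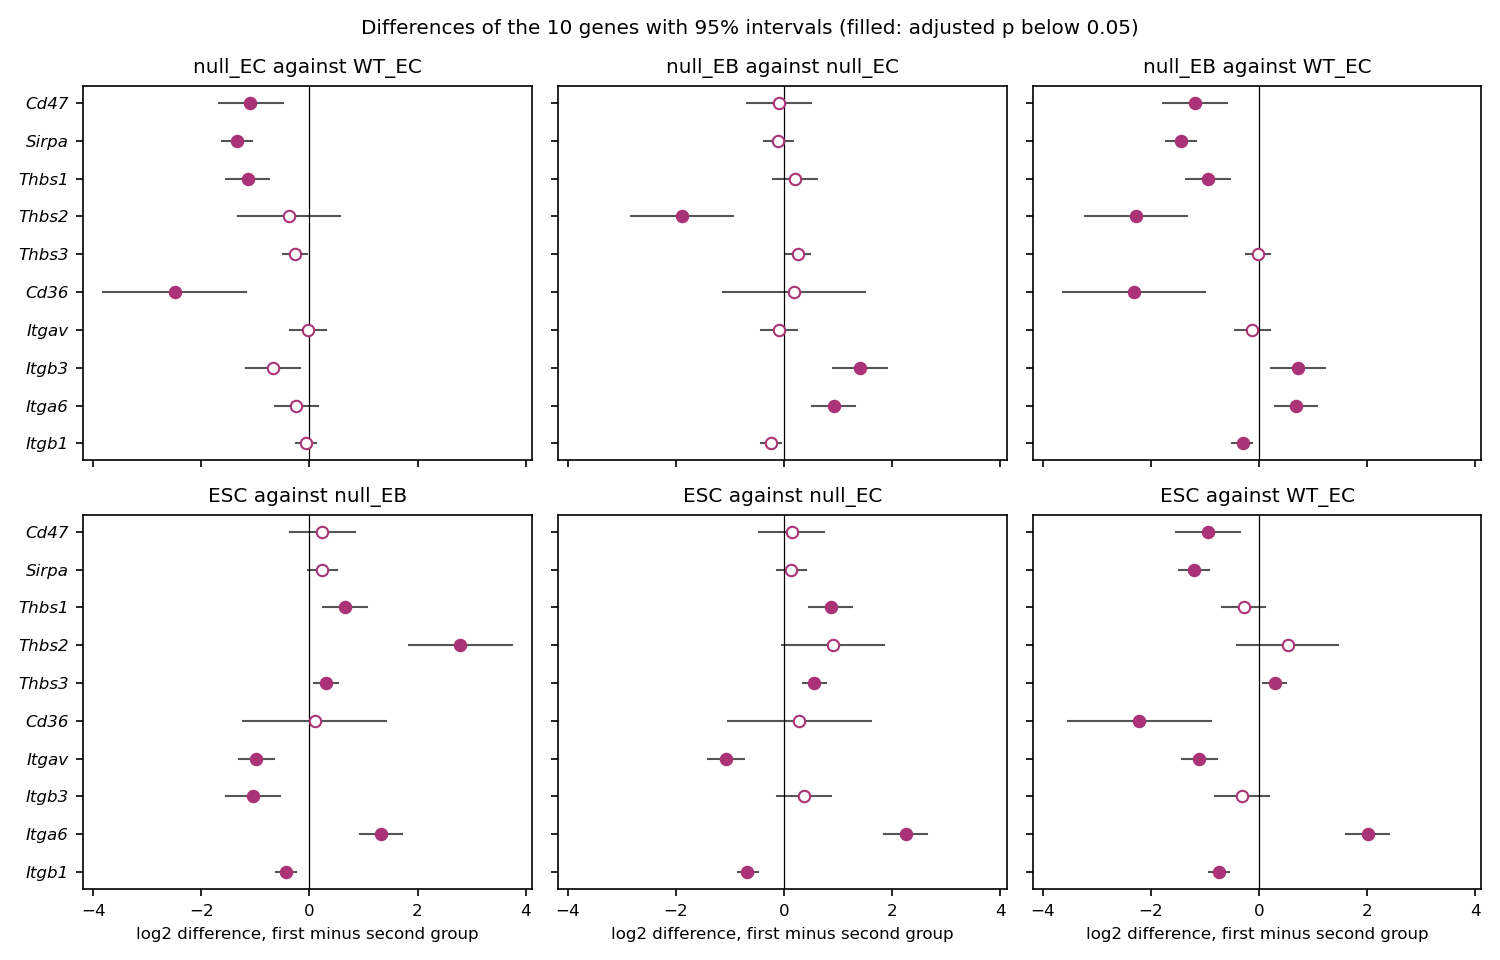
Log2 difference (x axis, first minus second group named above each panel) of the 10 genes (y axis) with 95% intervals; filled points had an adjusted p below 0.05. Cd47, Sirpa, Thbs1 and Cd36 lie left of 0 in both null groups against WT_EC, and Itga6 lies right of 0 and Itgav and Itgb1 left of 0 in each comparison of ESC.

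Counted by comparison, 4 of the 10 genes were lower and 0 higher in null_EC than in WT_EC, where 13.1% of all genes were called (8.12% higher and 5% lower). The 4 were Cd47, Sirpa, Thbs1 and Cd36, and Cd47 and Cd36 drop out when some single arrays are left out, so that the count ranged from 2 to 5. In null_EB against null_EC 2 were higher (Itgb3 and Itga6) and 1 lower (Thbs2), where 5.4% of all genes were called (2.9% higher and 2.5% lower). Against WT_EC 2 were higher and 6 lower in null_EB, with 18.5% of all genes called (12.3% higher and 6.19% lower), and the count ranged from 4 to 7 when 1 array was left out and was 1, Sirpa, in the 6 arrays alone. ESC had 4 higher and 3 lower than null_EB, 3 higher and 2 lower than null_EC, and 2 higher and 5 lower than WT_EC. Of all genes 44.8% were called in ESC against null_EB (21.8% higher and 23% lower), 47.9% in ESC against null_EC (22.9% and 25.1%) and 47.1% in ESC against WT_EC (25.4% and 21.7%), so the 50% called of the 10 genes in ESC against null_EC is near the background. Calls of at least 2-fold numbered 4 in null_EC against WT_EC (3.27% of all genes), 2 in null_EB against null_EC (1.23%), 4 in null_EB against WT_EC (3.4%), 3 in ESC against null_EB (15%), 2 in ESC against null_EC (16.5%) and 4 in ESC against WT_EC (15.7%). The arrays of the groups did not overlap for 5 of the 10 genes in null_EC against WT_EC (25.5% of all genes), 6 in null_EB against null_EC (41.1%), 8 in null_EB against WT_EC (28.3%), 8 in ESC against null_EB (67.4%), 8 in ESC against null_EC (72.2%) and 6 in ESC against WT_EC (51.5%). The median difference of the 10 genes was -0.52 in null_EC against WT_EC, where that of all genes was 0.032. For 6 of the 10 genes the mean was highest in WT_EC, and for 5 it was lowest in null_EC, against 22.4% and 13.1% of all genes. Comparisons that share a group share its arrays, and the 3 comparisons with WT_EC all rest on the same 3 arrays.

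The lists that follow are to be read against the share of all genes called, which moves with the WT_EC arrays used. In null_EC against WT_EC this share was 13.1%, and it was 17.3%, 27.3% and 15.6% without WT_EC 1, WT_EC 2 and WT_EC 3. The share in null_EB against WT_EC was 18.5%, and 23.9%, 32.6% and 17.9%. In ESC against WT_EC it was 47.1%, and 50.1%, 56.2% and 47.1%.

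Other thrombospondin receptors and partners, a list of 17 measured genes, had 2 higher and 2 lower in null_EC than in WT_EC, where 8.12% and 5% of all genes were. Calr, the calreticulin gene, whose surface protein marks cells for engulfment in opposition to CD47, rose 1.37-fold (12.95 ± 0.0441 against 12.49 ± 0.160, SD, n = 3 each, adjusted p = 0.00451 in limma), and the lipoprotein receptor gene Vldlr rose 1.94-fold (adjusted p = 0.0234). Cacna2d1, the calcium channel subunit that thrombospondins bind in neurons, fell 2.89-fold (8.34 ± 0.120 against 9.88 ± 1.24, adjusted p = 0.0461), with WT_EC arrays at 10.93, 8.5 and 10.2. The Notch ligand gene Jag1 fell 1.64-fold (adjusted p = 0.00216). With arrays aligned on housekeeping genes 1 of the 2 rises was no longer called, and without WT_EC 3 only 2 of these calls remained. In null_EB 0 were higher and 1 lower than in null_EC (2.9% and 2.5% of all genes), Jag1 at 1.48-fold (adjusted p = 0.0167). That call was lost with arrays aligned on housekeeping genes. Relative to WT_EC 0 were higher and 3 lower in null_EB (12.3% and 6.19% of all genes). Without WT_EC 2 the genes lower than in WT_EC numbered 5 in null_EC and 5 in null_EB, where 10.1% and 12.3% of all genes were lower. Without WT_EC 1 they numbered 1 and 5 (7.25% and 9.35% of all genes), with 3 higher in null_EB (14.5%). Without WT_EC 3 the lower genes numbered 1 and 2 (6.06% and 6.28%). In ESC 5 were higher and 10 lower than in null_EB, 4 and 10 than in null_EC, and 2 and 10 than in WT_EC. The shares of all genes higher and lower were 21.8% and 23%, 22.9% and 25.1%, and 25.4% and 21.7%. Notch3, a Notch receptor gene, was 4.15-fold higher in ESC than in null_EB (10.71 ± 0.133 against 8.66 ± 0.0790, adjusted p = 3.13e-08) and Dcn, the gene of the matrix proteoglycan decorin, 4.89-fold lower (adjusted p = 7.69e-08). Medians were -0.63, -0.68 and -0.70 in the 3 ESC comparisons, against -0.078, -0.089 and -0.066 for all genes.

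The other integrin subunits, 22 genes, had 1 call between null_EC and WT_EC, where 13.1% of all genes were called. It was the higher Itgb8, whose product activates latent TGF beta (2.02-fold, 9.49 ± 0.122 against 8.48 ± 0.173, adjusted p = 0.000315 in limma). The count was 2 higher and 3 lower without WT_EC 1, 2 and 6 without WT_EC 2, and 5 and 2 without WT_EC 3, while the share of all genes called also moved, as given above. Itgb8 rose again in null_EB, 1.94-fold over null_EC (adjusted p = 0.00128), beside Itgb4, the laminin receptor chain of hemidesmosomes (1.95-fold, 9.03 ± 0.0495 against 8.07 ± 0.161, adjusted p = 0.000776). In that comparison 3 of the 22 fell, among them the collagen receptor chains Itga1 (3.58-fold, adjusted p = 0.0388) and Itga11 (2.42-fold, adjusted p = 0.0389), and both of these calls were lost with arrays aligned on housekeeping genes. In the 2 lists together 4 integrin genes were called higher in null_EB than in null_EC, Itgb3, Itga6, Itgb4 and Itgb8, and 3 lower. Of all genes 2.9% were higher and 2.5% lower there, and the Itga6 call was lost without some single arrays. In null_EB against WT_EC 2 were higher and 1 lower (12.3% and 6.19% of all genes), the latter Itga5 of the fibronectin receptor (2.05-fold, adjusted p = 0.0454). Without WT_EC 2 the genes lower than in WT_EC were 7 in null_EB and 12 in ESC (12.3% and 28.4% of all genes). Without WT_EC 1 they were 3 and 8 (9.35% and 23.5%). In ESC 2 were higher and 7 lower than in null_EB, 2 and 8 than in null_EC, and 0 and 7 than in WT_EC. In these comparisons 21.8%, 22.9% and 25.4% of all genes were higher and 23%, 25.1% and 21.7% lower. Itga4 was 3.45-fold higher (adjusted p = 0.00241) and Itga10 4.79-fold lower (adjusted p = 0.000611) in ESC than in null_EB.

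Among 18 integrin ligand genes, the basement membrane gene Nid1 and the laminin genes Lama2 and Lama4 were among those lower in null_EC and null_EB than in WT_EC. In null_EC 1 was higher and 5 were lower than in WT_EC, and in null_EB 1 and 6, beside 5% and 6.19% of all genes lower. Without WT_EC 2 the lower genes numbered 8 and 11, beside 10.1% and 12.3% of all genes. Nid1, which links laminin to collagen, was at 9.63 to 9.96 in null_EC and 11.54 to 12.71 in WT_EC (5.62-fold, adjusted p = 8.63e-05 in limma), and the laminin chain Lama2 fell 4.78-fold (7.05 ± 0.112 against 9.31 ± 1.38, adjusted p = 0.0126). Lama4, the endothelial laminin chain, fell 9.55-fold in null_EB relative to WT_EC (7.10 ± 0.172 against 10.36 ± 0.840, adjusted p = 9.69e-05). Lama5 was the member that rose, 2.61-fold in null_EC (adjusted p = 0.00637) and 1.96-fold in null_EB (adjusted p = 0.0291), and neither rise was called with arrays aligned on housekeeping genes. Between null_EB and null_EC 1 was higher and 0 lower (2.9% and 2.5% of all genes), with Nid1 at 2.05-fold (10.78 ± 0.0615 against 9.75 ± 0.178, adjusted p = 0.0305). In ESC 6 were higher and 2 lower than in null_EB, 6 and 5 than in null_EC, and 3 and 10 than in WT_EC. Of all genes 21.8%, 22.9% and 25.4% were higher and 23%, 25.1% and 21.7% lower. Against null_EB the share of the list called was near that of all genes (44.8%). Among the higher ones was Edil3, a ligand of the alpha v integrins, at 9.12 ± 0.217 in ESC, 5.84 ± 0.110 in null_EB, 5.44 ± 0.161 in null_EC and 6.33 ± 0.818 in WT_EC (adjusted p = 6.76e-06, 2.42e-06 and 2.45e-05 for ESC against the other groups in that order). Lama1, the laminin chain of early embryos, was 3.51-fold higher in ESC than in null_EC and 3.40-fold higher than in WT_EC, while Itga6, a chain of its receptor, was 4.75-fold and 4.03-fold higher.

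The 15 integrin adaptor genes, which tie integrins to actin, had 1 higher and 2 lower in null_EC than in WT_EC, where 8.12% and 5% of all genes were, and 0 and 1 in null_EB against null_EC (2.9% and 2.5%). The call between null_EB and null_EC was lost with arrays aligned on housekeeping genes. In null_EB against WT_EC 1 was higher and 6 were lower (12.3% and 6.19% of all genes), with Fermt2, the gene of kindlin-2, at 1.84-fold lower (10.46 ± 0.132 against 11.34 ± 0.521, adjusted p = 0.0124 in limma). Without WT_EC 2 the genes lower in null_EC were 6 (10.1% of all genes), and with arrays aligned on housekeeping genes those lower in null_EB were 3 (3.62%). In ESC 3 were higher than in each other group (21.8%, 22.9% and 25.4% of all genes). Lower than in null_EB, null_EC and WT_EC were 7, 8 and 8 (23%, 25.1% and 21.7% of all genes). Fermt1, the gene of the epithelial kindlin-1, was 4.10-fold higher in ESC than in null_EB (adjusted p = 1.91e-07) and Parva, the parvin alpha gene, 2.14-fold lower (adjusted p = 7.86e-07).

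The CD47 and SIRP alpha signalling list had 17 measured genes, of which 2 were higher and 0 lower in null_EC than in WT_EC, a share near that of all genes called (13.1%). With arrays aligned on housekeeping genes, and without WT_EC 3, 1 of these 2 calls was lost. Kdr, the VEGF receptor whose signalling CD47 restrains, was at 6.98, 6.84 and 6.91 in ESC, 7.35, 7.26 and 7.40 in null_EB, 10.83, 10.74 and 10.52 in null_EC, and 8.51, 8.61 and 9.35 in WT_EC. The null_EC arrays were thus the highest, and those of ESC the lowest. Kdr fell 10.3-fold in null_EB relative to null_EC (adjusted p = 8.04e-06 in limma) and was the 1 called gene of the list there, where 5.4% of all genes were called. It was 3.67-fold higher in null_EC than in WT_EC (adjusted p = 0.000108), and the other called gene in that comparison was the cyclic GMP-dependent kinase gene Prkg2 (2.57-fold, 9.17 ± 0.0598 against 7.81 ± 0.870, adjusted p = 0.0206), which was at 7.35, 8.81 and 7.26 on the WT_EC arrays. In null_EB against WT_EC 1 was higher, Prkg2, and 1 lower, Kdr (12.3% and 6.19% of all genes). Without WT_EC 1 these counts were 2 and 4 (14.5% and 9.35%). In ESC 4 were higher and 5 lower in each of the 3 comparisons, a share near the 44.8% to 47.9% of all genes called. Against WT_EC the counts were 5 and 9 without WT_EC 1 (26.7% and 23.5% of all genes). With arrays aligned on housekeeping genes they were 1 and 7 (14.8% and 36.6%). Ptpn6, which encodes the phosphatase SHP-1 that SIRP alpha recruits, was 1.69-fold higher in ESC than in null_EB, and Dnm1l, the gene of the mitochondrial fission protein Drp1, 2.14-fold higher. Prkg1 was 8.18-fold lower in ESC than in null_EC (7.22 ± 0.0556 against 10.26 ± 0.0446, adjusted p = 0.000527).

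**Figure D4:**
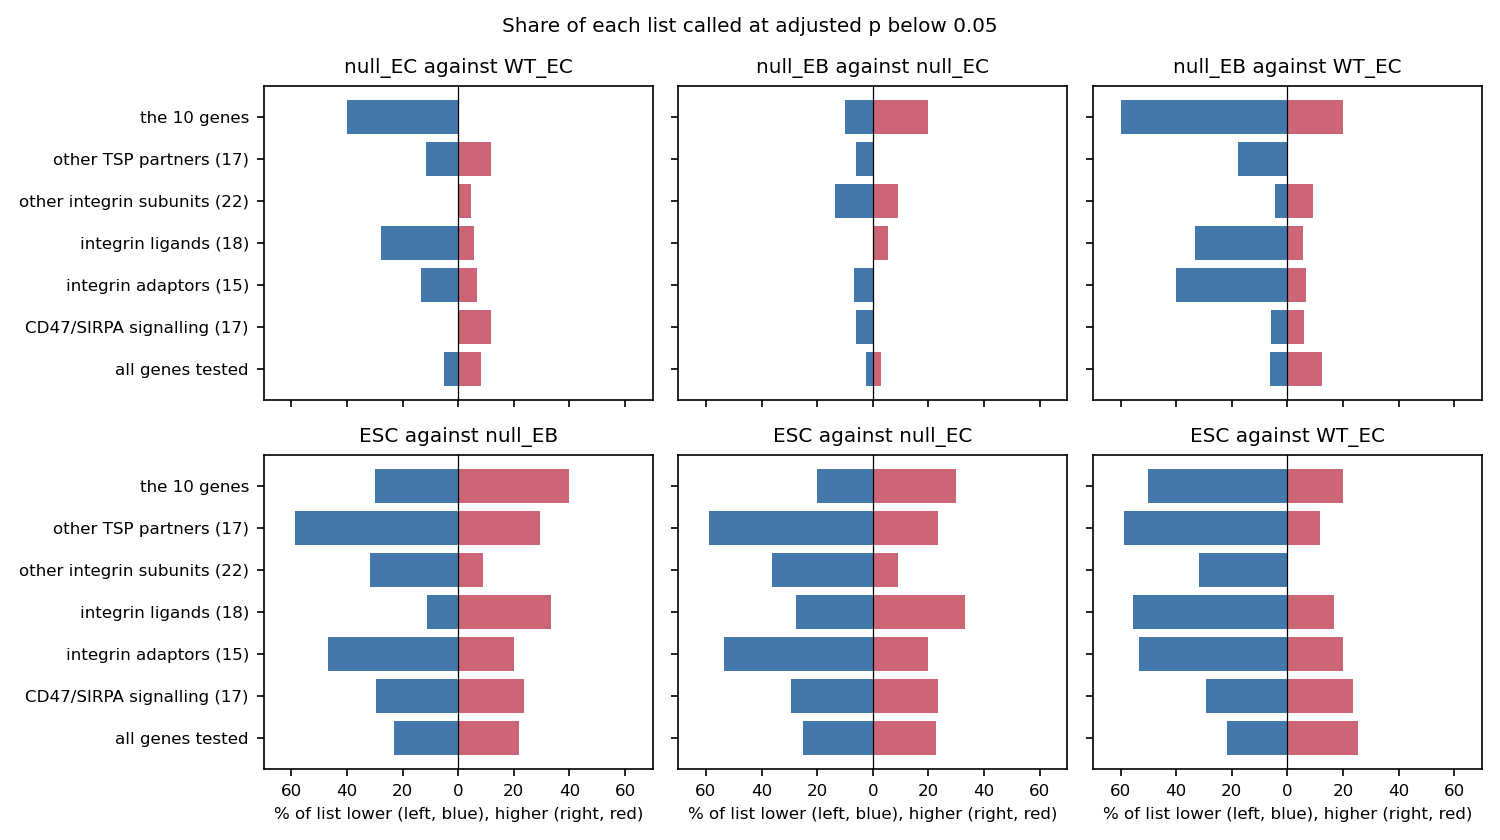
Percent of each list (x axis) called lower (left of 0) or higher (right of 0) at an adjusted p below 0.05 in 6 comparisons, with the lists down the y axis. In null_EC against WT_EC 4 of the 10 genes lie to the left and 0 to the right, and in each ESC comparison the other receptors, other integrin subunits and adaptors have more genes to the left than to the right.

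Genes whose pattern over the 12 arrays was most like that of a member were found by the root mean square (RMS) difference of their signals, each centred on its own mean. For Cd47 these were Wnt2, Tshz2 and Dpysl3 (RMS difference 0.177, 0.178 and 0.180 log2, beside an SD of 0.588 of Cd47 itself over the arrays). All 3 were high on WT_EC 1 and WT_EC 3 and lower on WT_EC 2. Wnt2, a lung mesenchymal Wnt ligand gene, stood at 9.16, 7.23 and 8.51 there and at 7.13 to 7.45 on the other 9 arrays. For Sirpa the nearest genes were Hdc, the histidine decarboxylase gene, Ripor2 and Dpysl3 (0.197, 0.228 and 0.234). For Thbs1 they were the kinase gene Sik1, Strip2 and Mapk11 (0.156, 0.178 and 0.183), and for Itga6 Tead2, a transcription factor gene of the Hippo pathway, the DNA polymerase subunit gene Pola2 and Usp37 (0.232, 0.232 and 0.235, beside an SD of 0.936). Tead2 was at 11.05 to 11.17 in ESC, 10.15 to 10.36 in null_EB, 8.74 to 8.98 in null_EC and 9.18 to 9.51 in WT_EC, the order of Itga6.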

How the data were processed

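Total RNA of 12 mouse samples, 300 ng of each, was labelled and hybridised to whole-transcript Affymetrix arrays, 1 per sample. The identifiers match a mouse array in the probe table, although a human array is named in the label protocol. The deposited log2 values were made with RMA in Expression Console 1.2.1, per the submitters' processing notes. RMA subtracts background, gives all arrays the same distribution and summarises the probes of a set. Equalised distributions can hide a global shift between groups. No detection calls were used, no depth applies, and 3 arrays per group limit the precision.

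Of 35556 probe sets, 21789 mapped to 1 gene. The 1621 of several genes and the 12146 of none were not used, and the brightest probe set by mean over 12 arrays was kept, which gave 19938 genes. limma 3.58.1 (R 4.3.3) estimated 1 mean for each group from the 12 arrays together, with Benjamini-Hochberg adjustment over all genes in each of 6 comparisons. The fit pools the spread of 4 groups, and WT_EC varied most, so p-values against WT_EC tend to be too small and those between the other groups too large. The script was tested on simulated data. The members, the other gene lists and the markers were chosen with earlier results of these data known. From each other list the named genes are up to 2 called genes with the largest rise and up to 2 with the largest fall in a comparison. Adgre1, Lyz2, Itgam, Cd14, Cd53, Csf1r, Fcer1g, Cd68, Ptprc, Tyrobp, Laptm5, Cd52, Msln, Upk3b, Fabp4, Adipoq, Cdh5, Pecam1, Egfl7 and Col1a1 are named as markers, and Comp to complete its list. Alternatives were the 6 arrays alone, array or group weights, a trended robust prior, removal of dim genes (those at 6 or more on fewer than 3 arrays), mean probe sets, 2 shifts of the arrays, a replicate block and single arrays left out. The second Cd47 probe set and the list counts under other settings were added after the data had been seen. Promoter windows are from RefSeq.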

Additional observations from a re-analysis of the deposited data

How the results depend on the processing

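No called difference of a member changed direction under any setting run. Over the settings other than leaving out 1 array, 521 member values kept their side of the threshold, 28 lost a call and 27 gained one, and on leaving out 1 array 314 kept it, 41 lost and 5 gained one. The fit of the 6 arrays alone changed most calls (13 lost, 7 gained), and the trended robust prior and the mean of probe sets changed 0 of the member calls. So did the filter on dim genes, which Cd36 passed only through its WT_EC arrays. In that 6-array fit the Cd47 difference of null_EC and WT_EC was -1.09 with an adjusted p of 0.181, and over single arrays left out it ran from -1.50 to -0.85.

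Genes called in null_EC against WT_EC numbered 2615, 652 at 2-fold, 588 in the 6 arrays alone, 1531 with 1 variance per group, 1305 with housekeeping alignment and 1335 to 5435 without 1 array. In null_EB against null_EC the numbers were 1077, 245, 5464, 5364, 534 and 390 to 676, with 8001 under array weights and 5058 without WT_EC. In null_EB against WT_EC they were 3697, 677, 870, 1915, 1310 and 2026 to 6496. ESC against null_EB had 8929, 2985 at 2-fold, 14866 with array weights and 7442 to 8194 without 1 array. ESC against null_EC had 9560, 3288 at 2-fold and 7997 to 8261, and ESC against WT_EC 9394, 3122 at 2-fold, 6250 in 6 arrays and 7973 to 11196.

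Members called were 4 in null_EC against WT_EC (1 in 6 arrays, 2 to 5 without 1 array). In null_EB against null_EC they were 3, with 5 in 6 arrays, under array weights, with 1 variance per group and without WT_EC, and 1 to 2 without 1 array. In null_EB against WT_EC they were 8 (4 at 2-fold, 1 in 6 arrays, 4 to 7 without 1 array). In ESC against null_EB they were 7 (3 at 2-fold, 6 to 7), in ESC against null_EC 5 (2 at 2-fold, 8 in 6 arrays and without WT_EC, 5 to 5) and in ESC against WT_EC 7 (4 at 2-fold, 4 in 6 arrays, 5 to 8).

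Aligning 10 housekeeping genes subtracted an offset from each group difference, from -0.137 in null_EB against null_EC to 0.231 in ESC against WT_EC. The share of higher calls moved from 61.9% to 17.2% in null_EC against WT_EC and from 53.7% to 78.1% in null_EB against null_EC. It moved from 66.6% to 45% in null_EB against WT_EC, 48.6% to 30.4% in ESC against null_EB and 53.9% to 28.9% in ESC against WT_EC. Median alignment gave 34.4% in ESC against null_EB and 35.2%, beside 47.7%, in ESC against null_EC. Called list genes whose sign changed under the 2 shifts or without a WT_EC array numbered 0. With the replicate block, samples of the same number share only a number: their deviations correlated from -0.256 to 0.225, over 0.1 in 3 of 18 pairs. The block ended 3 member calls, Thbs2 in null_EB against null_EC (adjusted p = 0.0562) and Itgb3 and Itgb1 in null_EB against WT_EC (adjusted p = 0.0531 and 0.0524), and the causes of these changes were not tested.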
